A study of Mus musculus with 162 samples.

Results

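The genes described here are 10 members of the insulin, insulin-like growth factor and glucagon pathways and of the FoxO branch below them: Insr, Irs1, Irs2, Igf1r, Gcgr, Foxo1, Foxo3, Sesn1, Sesn3 and Ccng2. They were taken by gene symbol from the deposited count table, where each symbol has 1 row, so that they are 10 of 53686 rows. Their levels were measured by RNA-seq in 9 organs of mice deprived of food for up to 22 h, and each level is given as normalized CPM, CPM being counts scaled to a common library total, after correction by the trimmed mean of M values (TMM) within the organ.

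Insulin binds its receptor Insr, a tyrosine kinase that phosphorylates the docking proteins Irs1 and Irs2, and the signal passes through phosphoinositide 3-kinase to Akt. Akt phosphorylates the transcription factors Foxo1 and Foxo3, which then leave the nucleus, and in a fasted animal with low insulin they return to it and bind their target genes. Igf1r is the related receptor for insulin-like growth factors. Gcgr is the G protein-coupled receptor through which glucagon raises cAMP and glucose output in hepatocytes. Sesn1 and Sesn3, the sestrins, restrain the growth kinase complex mTORC1 and are known FoxO targets, as is Ccng2, an unconventional cyclin linked to cell cycle arrest.

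The samples came from 18 male C57Bl/6J mice aged 8 to 9 weeks, wild type and untreated apart from the fast, with 3 mice fed freely (0 h) and 3 at each of 5 durations of short-term fasting (STF): 2 h, 8 h, 12 h, 18 h and 22 h. Each mouse gave the olfactory bulb (OB), the brain (BRN, the telencephalon and diencephalon), the cerebellum (CBL), the brainstem (BST, the mesencephalon, pons and myelencephalon), the stomach (STM), the liver (LIV), the interscapular brown adipose tissue (iBAT), the perigonadal white adipose tissue (pgWAT) and the posterior-subcutaneous white adipose tissue (psWAT). All mice had water and were killed at the same clock time early in the dark phase. The 0 h mice ate freely until then and are called fed. Fasts of 2, 8 and 12 h began in the light phase of the same day, and those of 18 and 22 h in the dark phase before it, so that the length of a fast and the clock time at which food was removed cannot be told apart. The 8 and 12 h libraries of an organ formed the daytime fast and the 18 and 22 h libraries the late fast.

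A set of 5 libraries with low totals was left out, 2 of BRN and 1 each of STM, iBAT and psWAT. The kept libraries held 3045845 to 27801717 counts, with a median of 8735554. Defining markers stood high in their own organs: the summed CPM of the hepatocyte markers was 77564 to 102518 in LIV, that of the cerebellar markers 5811 to 7194 in CBL and that of the brown adipocyte markers 4425 to 12357 in iBAT. White fat was mixed, with adipocyte markers at 3759 to 50901 in pgWAT and 480 to 34016 in psWAT. In 4 libraries the profile lay nearest to another organ: psWAT 12 h replicate 3, pgWAT 22 h replicate 2, BRN 2 h replicate 3 and BRN 18 h replicate 2. Sequencing lanes followed time in OB, STM and LIV, where 12, 18 and 22 h shared a lane and 0 and 2 h another. In pgWAT the fed libraries were all in lane 5 and those of 18 and 22 h all in lane 6. In iBAT the kept 22 h libraries were in lanes 1 and 3, which held no other kept iBAT library. Lanes were read from the library names. The numbers in those names fell into a lower and a higher range, called library series here, and what the ranges stand for is not given in the sources used here. In BRN the 3 fed libraries had numbers of the lower range and all 18 and 22 h libraries of the higher one. In bulk tissue, fewer cells of a type and less RNA per cell cannot be told apart, which holds for every level below.

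The stretches around the starts of the genes are shown first for the members whose RNA the later comparisons turn on in LIV and STM. RefSeq promoters of build GRCm38.p6, 250 bases before to 50 after the annotated start, matched 9 of the 10 members. They were searched on both strands for GTAAACA, which reads TGTTTAC on the other strand and is a core sequence bound by FoxO factors, for the palindrome TGACGTCA, which CREB binds downstream of cAMP, and for the palindrome CACGTG, the E-box. Of the members, Sesn1 had a match to the first, in 1 of its 2 RefSeq starts, 22 bases after that start. CACGTG occurred in Irs1 and, 44 bases before the start, in Irs2. TGACGTCA was in none of these windows. Over all 32851 promoters of the same length, 3.65% held GTAAACA, 1.79% TGACGTCA and 7.15% CACGTG. The windows of Sesn1 (chr10:41810324-41810623, plus strand), Ccng2 (chr5:93267323-93267622, plus strand) and Gcgr (chr11:120530477-120530776, plus strand) are printed 5′ to 3′, with capitals for the match:
Sesn1: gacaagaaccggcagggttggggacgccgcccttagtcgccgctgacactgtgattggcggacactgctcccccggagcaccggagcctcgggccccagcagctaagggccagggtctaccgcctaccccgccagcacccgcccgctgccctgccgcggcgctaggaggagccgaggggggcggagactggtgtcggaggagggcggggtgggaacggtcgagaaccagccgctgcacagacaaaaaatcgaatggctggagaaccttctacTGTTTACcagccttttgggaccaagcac
Ccng2: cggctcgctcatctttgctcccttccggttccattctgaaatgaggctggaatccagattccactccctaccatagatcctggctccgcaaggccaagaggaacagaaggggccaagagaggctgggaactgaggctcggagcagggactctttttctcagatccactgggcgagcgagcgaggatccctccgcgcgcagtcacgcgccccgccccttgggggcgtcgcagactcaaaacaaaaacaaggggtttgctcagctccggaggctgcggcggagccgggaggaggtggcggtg
Gcgr: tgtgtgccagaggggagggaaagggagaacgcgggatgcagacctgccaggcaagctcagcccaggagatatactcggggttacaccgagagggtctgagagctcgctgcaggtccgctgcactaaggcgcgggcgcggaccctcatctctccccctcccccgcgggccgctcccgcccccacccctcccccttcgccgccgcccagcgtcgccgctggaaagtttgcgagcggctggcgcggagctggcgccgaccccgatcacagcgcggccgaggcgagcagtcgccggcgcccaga
A match is a description of the letters and not a binding site.

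In LIV, the organ glucagon acts on most, Gcgr was the most abundant member per length of transcript. The mean over 18 LIV libraries was 552 ± 128 normalized CPM (SD), with single libraries between 407 and 832. Divided by its exon length of 2.62 kb this was 211 normalized CPM per kb, against 8.37 for Insr, 6.47 for Foxo3, 4.75 for Foxo1, 2.57 for Ccng2, 2.56 for Sesn1, 2.53 for Irs1, 1.43 for Irs2, 0.898 for Sesn3 and 0.131 for Igf1r. In the other 8 organs the mean of Gcgr lay between 0.0739 in BST and 1.38 in pgWAT, and its highest single library outside LIV, an STM library of 12 h, held 9.46. No count of Gcgr was found in 14 of 16 BRN and 10 of 18 BST libraries. All 18 mice had more Gcgr in LIV than in pgWAT, the next organ (adjusted p = 0.0001, two-sided exact sign-flip permutation test over mice), whereas none of the 7 later neighbours in the order of organs differed beyond their spread. Here and below, libraries with the same replicate number at a fasting time were taken as the same mouse. The order of organs was read from the same values that were tested.

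**Figure D1:**
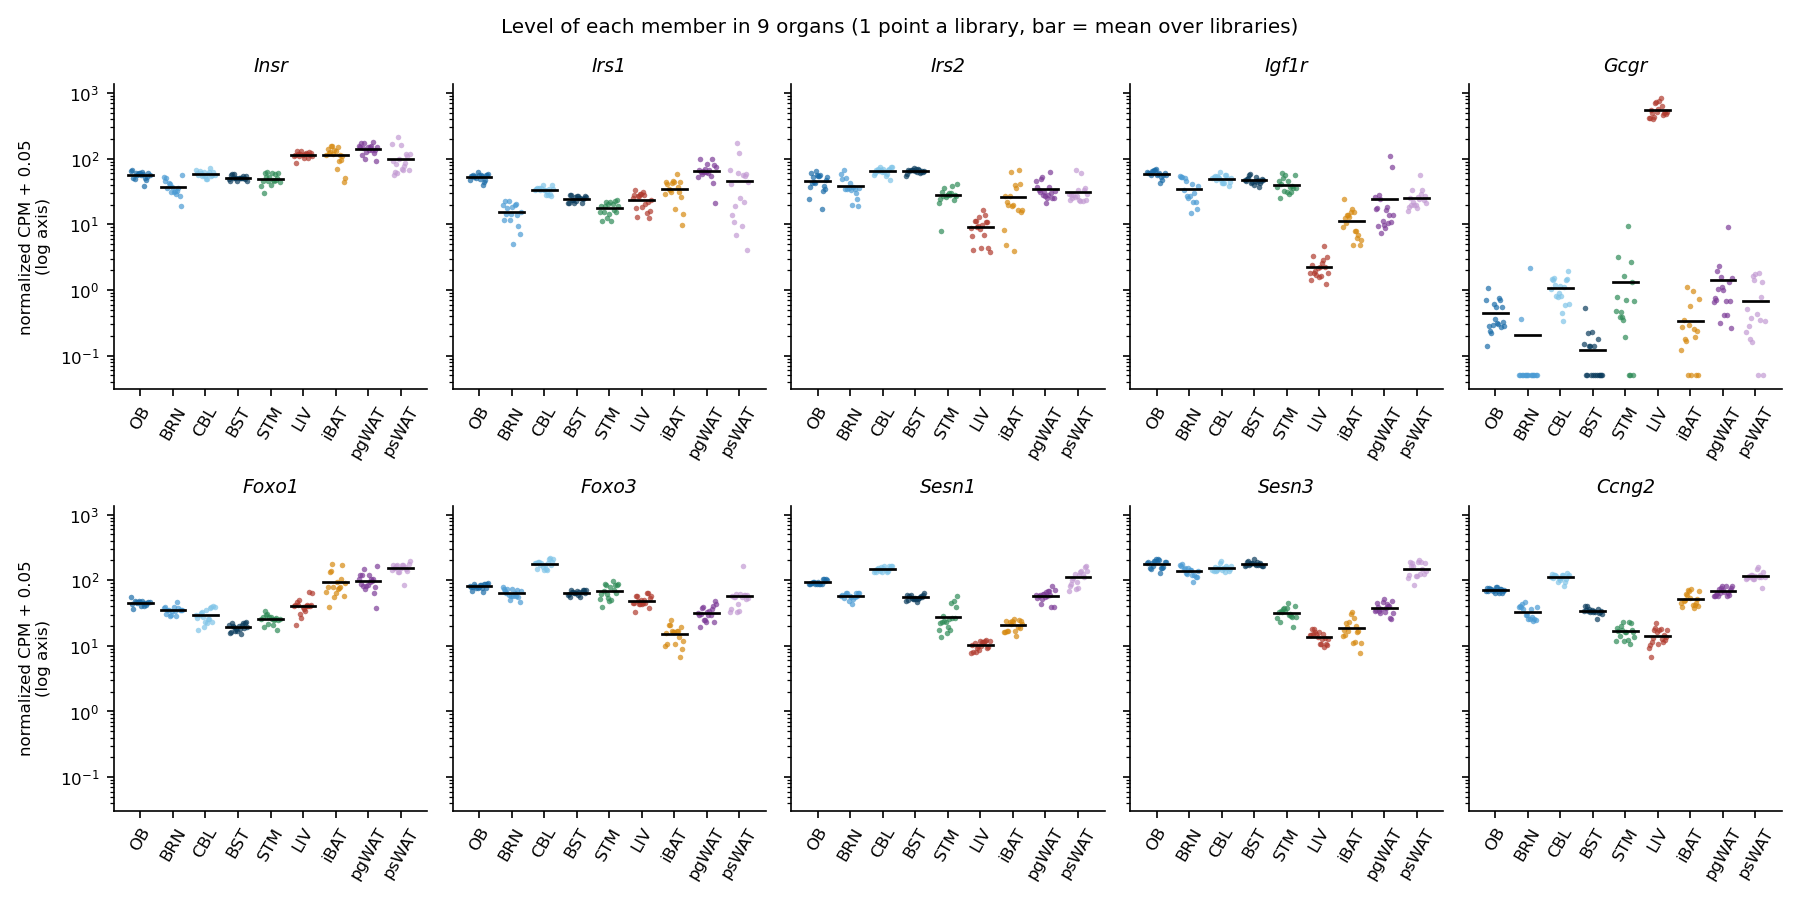
Levels of the 10 members in 9 organs, as normalized CPM + 0.05 on a log axis, with 1 point a library and a bar at the mean over all fasting times. Gcgr stands at 407 to 832 in LIV and below 10 in every library of the other organs, and Igf1r is lowest in LIV.

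Insr was highest in the metabolic organs. Its mean was 141.9 ± 24.2 normalized CPM in pgWAT (SD, n = 18), 115.1 ± 10.8 in LIV (n = 18), 113.8 ± 33.7 in iBAT (n = 17) and 100.3 ± 44.1 in psWAT (n = 17). From there it dropped to 58.9 ± 6.18 in CBL (adjusted p = 0.00027 by the permutation test), with 37.6 ± 10.0 in BRN as its lowest mean. LIV and iBAT did not differ beyond the spread over mice (adjusted p = 0.583), nor did iBAT and psWAT (0.278). Igf1r had another order. It was highest in OB at 59.2 ± 6.98, lay at 11.1 ± 5.27 in iBAT and was lowest in LIV at 2.20 ± 0.83, and all 17 mice with both organs had more of it in iBAT than in LIV (adjusted p = 0.00011, exact permutation test).

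The 2 docking proteins differed in their order of organs. Irs2 was highest in BST (65.05 ± 4.01) and CBL (64.97 ± 7.38), which did not differ beyond their spread (adjusted p = 0.905), and was lowest in LIV at 9.02 ± 3.54, below iBAT at 26.2 ± 18.0 (adjusted p = 0.00032). Irs1 was highest in pgWAT at 66.0 ± 18.3 and lay at 23.1 ± 6.56 in LIV and 15.2 in BRN. In psWAT the level of Irs1 spread from 4.04 to 173 normalized CPM (46.6 ± 44.7, n = 17).

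The 2 FoxO factors also had unlike orders. Foxo1 was highest in fat, with 154.1 ± 24.7 in psWAT, 98.4 in pgWAT and 92.6 ± 40.03 in iBAT, and all 17 mice had more Foxo1 in iBAT than in OB, the next organ at 45.4 (adjusted p = 0.00011, exact permutation test). Foxo3 was highest in CBL at 178 ± 22.8, above OB at 80.6 in all 18 mice, and lowest in iBAT at 15.1 ± 4.80. LIV held 41.2 ± 11.1 of Foxo1 and 49.01 ± 8.42 of Foxo3.

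Sesn1, Sesn3 and Ccng2, the genes below FoxO, were each lowest in LIV, where their means were 10.2 ± 1.52, 13.7 ± 2.58 and 14.0 ± 3.90 normalized CPM. Sesn1 peaked in CBL at 148.8 ± 12.2 and Ccng2 in psWAT at 116.5 ± 18.4 and CBL at 110.9 ± 12.3. Sesn3 was high in all 4 brain regions and psWAT, from 137.6 in BRN to 178 ± 23.9 in OB, and dropped to 37.8 in pgWAT. Ccng2 in STM and LIV did not differ beyond the spread over mice (adjusted p = 0.0998), while Sesn1 was lower in LIV than in iBAT in all 17 mice. Of the 80 neighbouring pairs of organs over all members, 33 passed at an adjusted p under 0.05. When TMM factors were computed over all organs together the order at the top changed, with Insr at 185 in LIV, 158.6 in iBAT and 131.4 in pgWAT, and with 37 passing pairs, and Ccng2 was then lowest in STM at 19.3, below LIV at 22.6. A level compared between organs therefore depends on the scaling. White fat RNA was also extracted with another kit than that of the other organs.

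STF was then compared within each organ. Gcgr passed the filter on low counts only in CBL, STM, LIV and pgWAT, and the other 9 members passed it in all 9 organs, which gave 85 tests of a member in an organ. Between late fast and fed 10 of the 85 passed edgeR's quasi-likelihood test at an adjusted p under 0.05 (4 rose and 6 fell), beside 6.44% of all genes tested over the 9 organs. Unadjusted p was under 0.05 in 30, beside 21.9% of all tests. Between daytime fast and fed 3 passed (2 rose, 1 fell), beside a background of 1.9%. Late and daytime fast differed in 10 (3 rose, 7 fell), beside 6.59%. The time course test over all 6 time points passed in 13, beside 7.34%: 5 of 9 members in iBAT (29% of all genes), 4 of 9 in OB (15.4%), 2 of 10 in LIV (16%) and 1 of 10 each in STM (6.55%) and CBL (2.99%). With gene length offsets 4 of the 85 passed between late fast and fed, beside 5.57%, and with lane or library series as a covariate 2, beside 1.05%. The share of all genes that passed differed widely between organs, so the counts by organ below are set beside that of the organ. These comparisons share libraries and are not independent of each other. Where a group is said below to lie wholly above or below another, the share of all genes separated in this way was not counted.

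**Figure D2:**
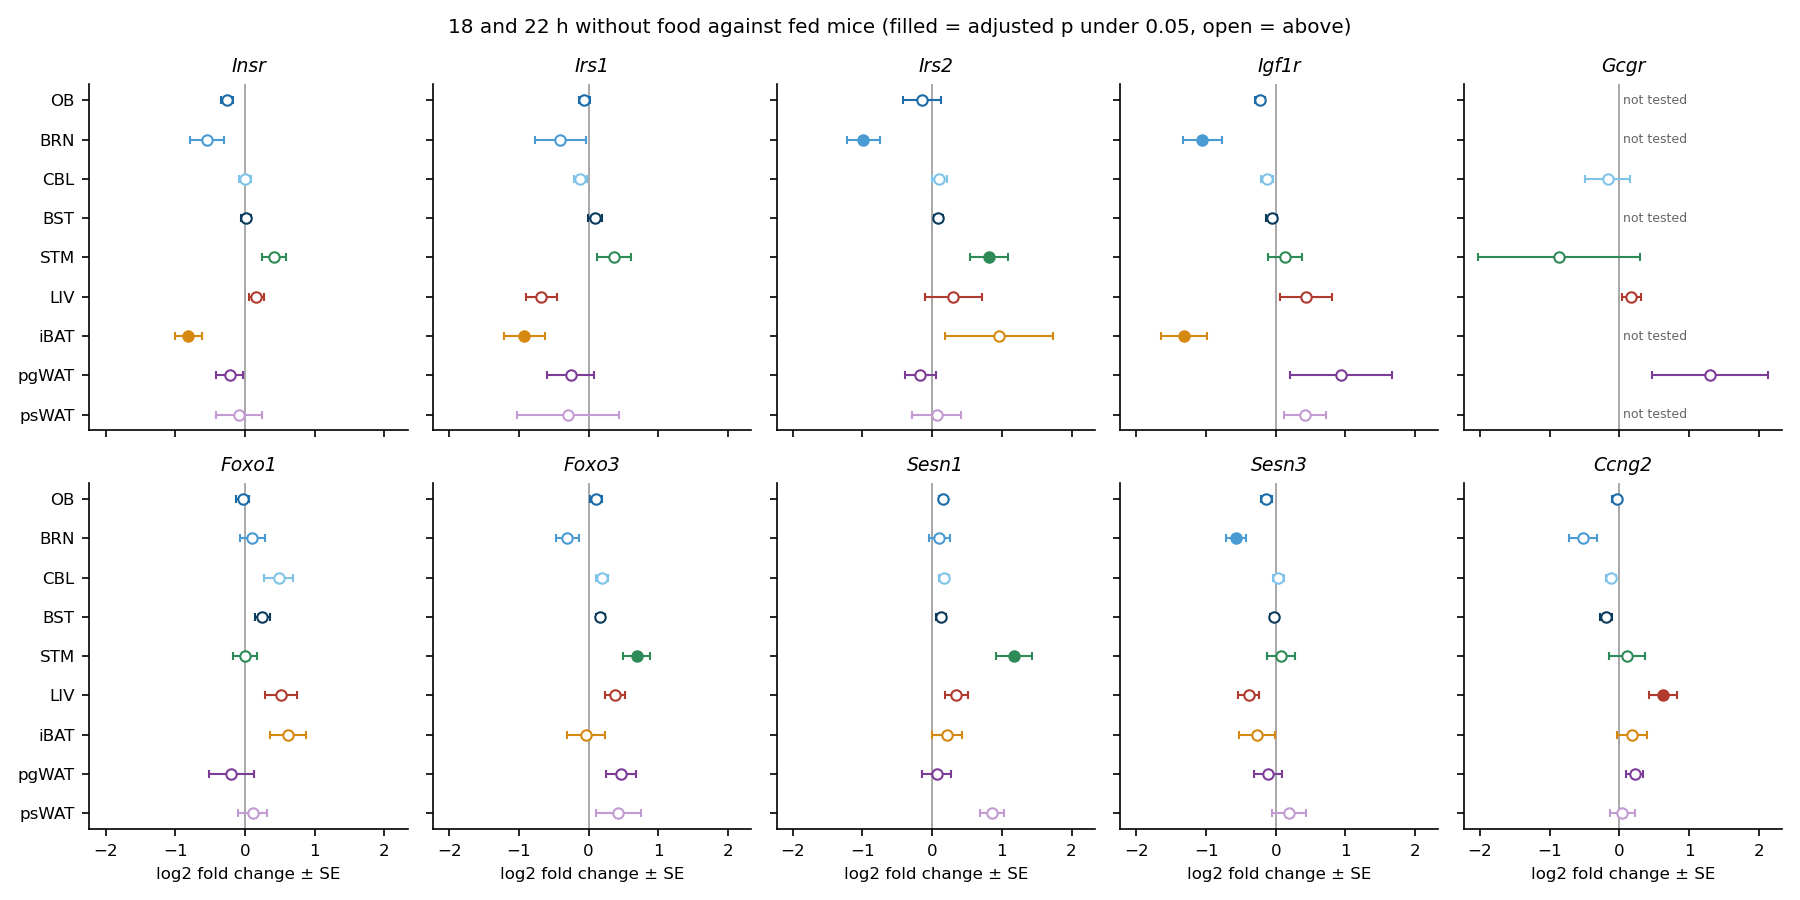
Log2FC of late fast against fed for each member and organ, with its standard error, from edgeR; filled points passed at an adjusted p under 0.05. The 4 rises are in STM and LIV, and the 6 falls in BRN and iBAT.

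In LIV 2 members rose in the daytime fast, Ccng2 and Gcgr, 2 of 10 tested, beside 8.89% of all LIV genes that passed in either direction and 4.08% that rose. Ccng2 was at 9.36, 10.3 and 6.75 normalized CPM in the 3 fed livers. It was at 18.6, 21.97 and 16.1 after 8 h and at 10.6, 17.4 and 18.1 after 12 h. All 6 daytime livers lay above all 3 fed livers, the lowest by a small margin. The mean rose from 8.79 ± 1.82 to 17.1 ± 3.74, a log2FC of 0.95 ± 0.20 (SE, adjusted p = 0.00771), and the 8 h and 12 h livers each passed on their own against fed (1.10, adjusted p = 0.0417, beside 0.471% of all genes, and 0.80, adjusted p = 0.0254, beside 11.9%). Leaving out any 1 of the 9 livers did not lose the call (adjusted p 0.0034 to 0.0424).

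In the late fast Ccng2 in LIV was at 12.7, 11.5 and 14.7 after 18 h and at 12.2, 13.4 and 17.4 after 22 h. These 6 livers were again all above the fed ones. The log2FC was 0.63 ± 0.20 (adjusted p = 0.0478), 1 of 10 tested members that passed in LIV beside 10.6% of all genes and 5.19% that rose. The call was lost when any of 7 of the 9 livers was left out, at an adjusted p of up to 0.204 without fed replicate 3. The late and daytime fasts of LIV did not differ at the threshold for Ccng2 (log2FC -0.32, adjusted p = 0.222).

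Gcgr rose in the daytime fast of LIV. The fed livers held 422, 412 and 547 normalized CPM. The 8 h livers held 697, 733 and 519 and the 12 h livers 573, 759 and 832. Of the 6 daytime livers 5 exceeded every fed liver, the exception being the third at 8 h. The log2FC was 0.57 ± 0.14 (adjusted p = 0.0183), and at 12 h alone 0.65 (adjusted p = 0.0142). Leaving out fed replicate 1 or fed replicate 2 lost the call (adjusted p = 0.114 and 0.123).

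At the other times no rise of Gcgr passed. At 2 h the livers held 495, 407 and 428. At 18 h they held 646, 471 and 493, and at 22 h 509, 488 and 509.7. Of these 9 livers 1, of 18 h, exceeded all fed livers, and the late fast differed from fed by a log2FC of 0.17 (adjusted p = 0.471). Late against daytime fast gave -0.40 ± 0.12, which missed the threshold (adjusted p = 0.062), whereas the time course passed (adjusted p = 0.0187, and up to 0.0592 in the 2 of 18 fits without 1 library that lost the call).

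Lane and time overlapped in LIV, where the first 2 livers of 8 h were sequenced with the fed and 2 h livers and the last of 8 h with those of 12 h and later. No other time held both lanes, so the lane term rested on the last 8 h liver against the first 2. For Gcgr that last liver was the lowest at 8 h. With lane as a covariate the daytime log2FC was 0.87 for Gcgr (adjusted p = 0.0217) and 1.17 for Ccng2 (adjusted p = 0.0261), beside 4.96% of all genes. That of Ccng2 in the late fast was 0.96 but no longer passed (adjusted p = 0.229), in a fit where 0.15% of all genes passed. With offsets for gene length the daytime rises kept their calls, at 0.53 for Gcgr (adjusted p = 0.0386) and 0.87 for Ccng2 (adjusted p = 0.016), whereas the late rise of Ccng2 lost its call at 0.54 (adjusted p = 0.105). Relative to the median of all LIV genes, which the offsets moved from 0.01 to -0.08, that rise was 0.62 in both.

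**Figure D3:**
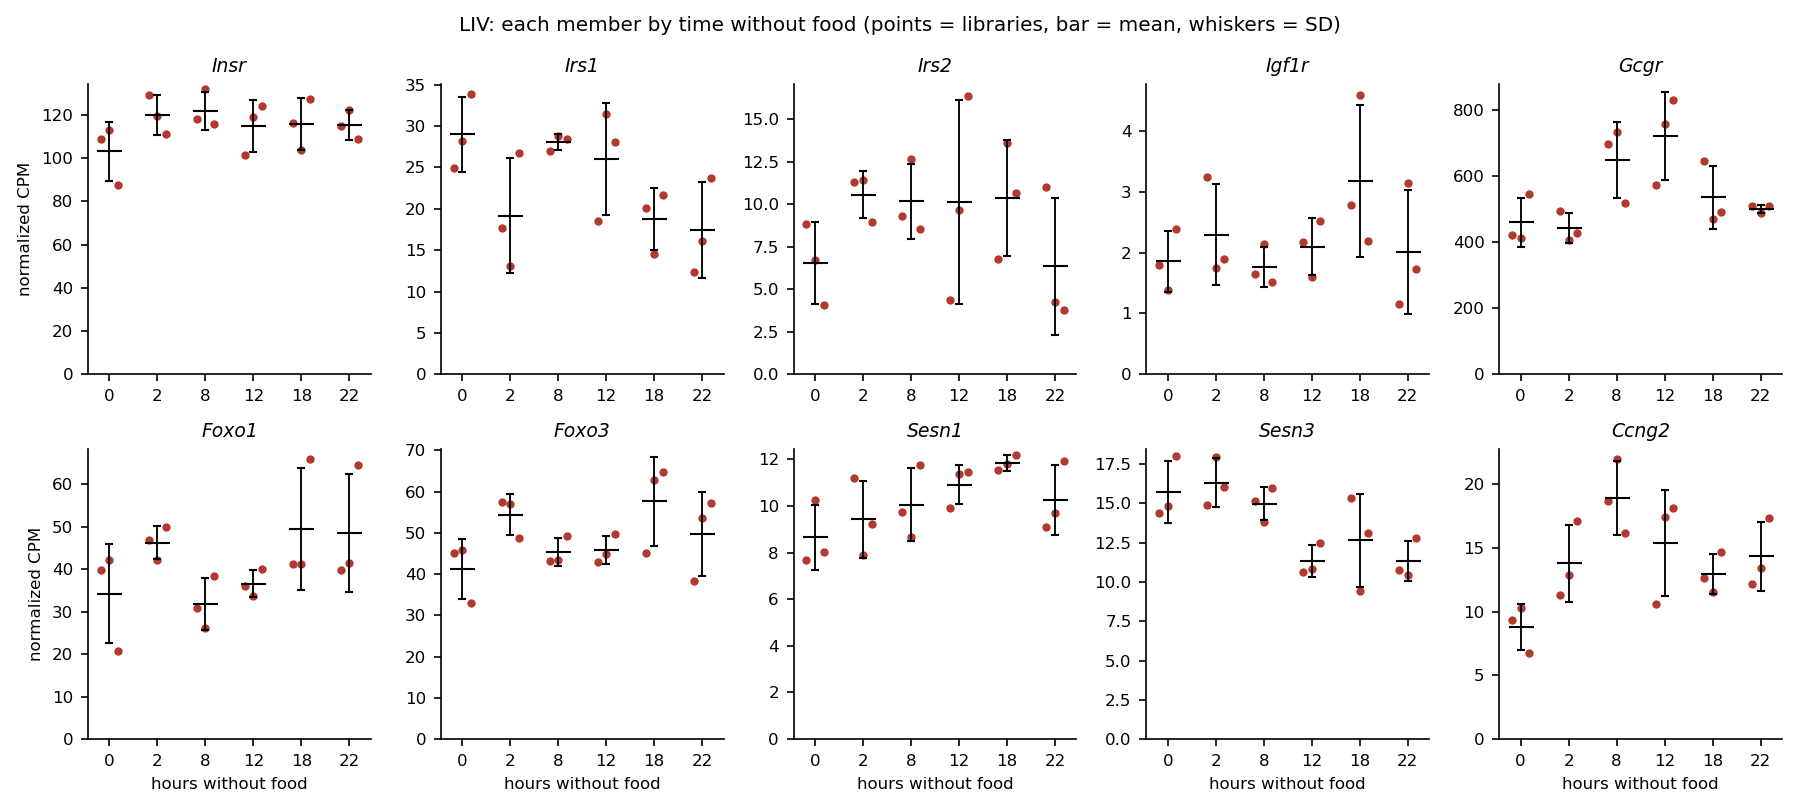
Normalized CPM of members in LIV at each fasting time, with 1 point a library, a bar at the mean and whiskers for the SD (n = 3 livers at each time). Gcgr and Ccng2 stand highest at 8 and 12 h, and Irs1 lowest at 18 and 22 h.

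Irs1 was lower in late fasted livers without passing. The fed livers held 24.9, 28.2 and 33.9 normalized CPM of Irs1. After 18 h it was at 20.1, 14.6 and 21.6, and after 22 h at 12.4, 16.1 and 23.8. All 6 late livers lay below all fed livers, but the log2FC of -0.68 ± 0.22 had an adjusted p of 0.058. Under gene length offsets it was -0.76 and passed (adjusted p = 0.036), and it also passed by DESeq2 (adjusted p = 0.0272, beside 12.6% of all genes). The 2 h livers, at 17.7, 13.1 and 26.7, also reached below the fed range.

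The 2 FoxO factors had higher means in the late fast of LIV, and neither passed. Foxo1 was at 39.8, 42.2 and 20.8 in fed livers, at 41.2, 41.1 and 66.0 after 18 h and at 39.8, 41.4 and 64.5 after 22 h. The groups overlapped, and 1 liver at each of 18 and 22 h stood well above the rest (log2FC 0.52 ± 0.22, adjusted p = 0.151). Foxo3 was at 45.0, 45.7 and 32.9 in fed livers and between 38.3 and 64.8 in late ones (log2FC 0.38 ± 0.14, adjusted p = 0.094).

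The remaining members of LIV did not pass between late fast and fed. Insr, at 103.2 ± 13.7 fed and 115.6 ± 8.74 late, had a log2FC of 0.16 (adjusted p = 0.347). Irs2, the other docking protein, held 8.85, 6.71 and 4.08 when fed and 3.80 to 13.6 in the late fast (0.30, adjusted p = 0.685). Sesn1 was at 8.66 ± 1.39 fed and 11.0 ± 1.31 late (0.35, adjusted p = 0.184), while its relative Sesn3 was at 15.7 ± 1.99 fed and 12.0 ± 2.17 late (-0.39, adjusted p = 0.099). Sesn3 passed when gene length offsets were added, at -0.48 (adjusted p = 0.0492). Igf1r held 1.16 to 4.59 in all LIV libraries.

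In iBAT 3 members fell in the late fast, the receptors Insr and Igf1r and the docking protein Irs1, 3 of 9 tested, beside 20.9% of all iBAT genes that passed and 13% that fell. Insr was at 115.6, 142.6 and 121.2 normalized CPM in fed mice. It held 114.3, 96.7 and 110.97 after 18 h and 44.9 and 51.6 in the 2 kept libraries of 22 h. All 5 late values lay below all fed values, those of 18 h by far less than those of 22 h. The log2FC was -0.81 ± 0.20 (adjusted p = 0.011). At 18 h alone it was -0.24 (adjusted p = 0.833), where 0.275% of all iBAT genes passed, and at 22 h alone -1.39 ± 0.26 (adjusted p = 0.000931), where 41% did.

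Irs1 in iBAT was at 28.9, 44.8 and 41.5 in fed mice, at 30.6, 44.6 and 26.1 after 18 h and at 9.86 and 14.1 after 22 h. The groups overlapped at 18 h, and the 22 h libraries lay below every other iBAT library. The log2FC of the late fast was -0.92 ± 0.29 (adjusted p = 0.0323), and that of 22 h alone -1.65 ± 0.39 (adjusted p = 0.00347, beside the 41% of all genes). Igf1r was at 9.21, 24.3 and 12.4 fed, at 7.92, 6.12 and 6.89 after 18 h and at 4.77 and 5.78 after 22 h. Every late value of Igf1r was below every fed value (log2FC -1.32 ± 0.33, adjusted p = 0.0127). Against the daytime fast the same genes fell in the late one, Insr by 0.68, Irs1 by 1.01 and Igf1r by 0.96 on the log2 scale, and Sesn3 by 0.75 (adjusted p = 0.0246), which made 4 of 9 beside 23.3% of all genes and 12.5% that fell.

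Lower levels of long genes went along with these falls. All 3 rested in part on single libraries: without fed replicate 2 the adjusted p was 0.0659 for Insr and 0.137 for Igf1r, and the call of Irs1 was lost without any of 5 of the 8 libraries (up to 0.142). Without 22 h replicate 2 each of the 4 falls against the daytime fast missed the threshold, with adjusted p of 0.077 for Insr, 0.0789 for Irs1, 0.108 for Igf1r and 0.115 for Sesn3. An index of the level of genes over 6000 exon bases against shorter ones was -1.02 and -0.68 in the 2 iBAT libraries of 22 h, and 0.01 to 0.39 in the fed ones. It was also low in the first and the last library of 12 h, at -0.30 and -0.40, in which Insr stood at 69.5 and 92.7 against 150.2 in the other. Over all iBAT genes the median log2FC of late fast against fed was -0.49 for the long genes and 0.11 for the others. Insr, Irs1 and Igf1r have 13.75, 9.14 and 16.79 kb of exon. With gene length offsets their log2FC were -0.28, -0.58 and -0.65, and none of the 3 passed (adjusted p = 0.207, 0.106 and 0.0784). Among the kept iBAT libraries 22 h replicate 2 alone had a number of the higher range, so that library series as a covariate takes it out. With that covariate Insr (-0.76, adjusted p = 0.0432) and Igf1r (-1.27, 0.0458) kept their late calls, beside 9.81% of all genes, and Irs1 did not (-0.81, 0.109). Against the daytime fast no iBAT gene passed with it (0 of 14529). The summed macrophage markers of iBAT were 147.5 to 371 CPM in the late fast and 45.2 to 220 in fed mice, those of skeletal muscle ranged from 48 to 13417 over its libraries, and the part of these in the falls was not tested.

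Foxo1 in iBAT changed over time in another way. It was at 65.3, 78.5 and 38.8 normalized CPM in fed mice. At 2 h it was at 132.1, 138.7 and 177, and at 8 h at 79.3, 55.02 and 63.6. The 2 h values exceeded all fed, 8 h and 12 h values, and only 1 other iBAT library, of 18 h at 172, lay among them. The time course passed (adjusted p = 0.00927), with library series as a covariate (0.0419), with gene length offsets (0.0326) and after each of the 17 libraries was left out. The 2 h mice alone against fed gave a log2FC of 1.29 ± 0.29, which missed the threshold (adjusted p = 0.081), as nearly all genes did at 2 h (0.248% passed). At 18 h Foxo1 was at 78.9, 105.4 and 172 and at 22 h at 57.3 and 89.2. The late fast did not pass against fed (log2FC 0.62, adjusted p = 0.0961) but did with gene length offsets (0.89, 0.0388), and late against daytime fast likewise went from 0.35 (adjusted p = 0.228) to 0.69 (0.0498). Irs2 in iBAT spread over mice, from 3.83 to 66.7, and passed in no comparison. Foxo3, Sesn1 and Ccng2 had log2FC of -0.04, 0.21 and 0.18 in the late fast of iBAT (adjusted p = 0.936, 0.496 and 0.57).

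**Figure D4:**
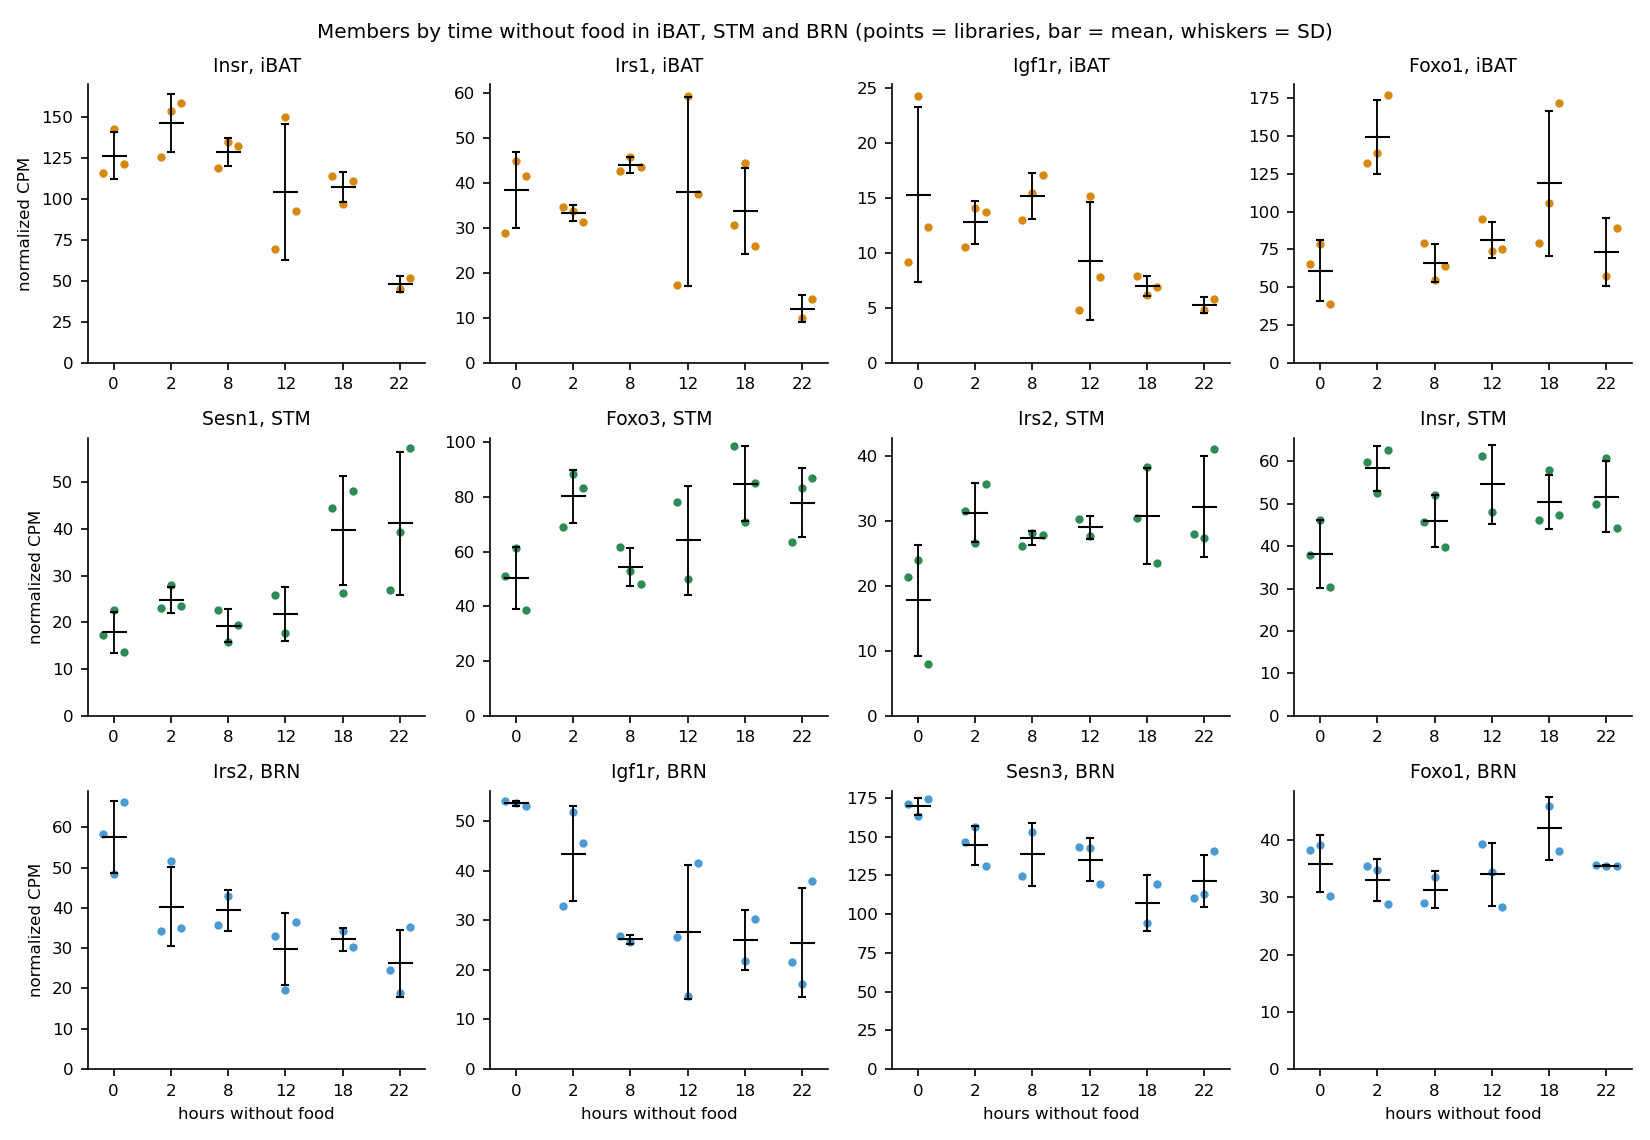
Normalized CPM of members in iBAT, STM and BRN at each fasting time, with 1 point a library, a bar at the mean and whiskers for the SD over 2 or 3 mice. Insr and Irs1 are lowest in the 22 h libraries of iBAT, Sesn1 of STM is highest at 18 and 22 h, and Irs2 and Igf1r of BRN are highest in fed mice.

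In STM 3 members rose in the late fast, Sesn1, Foxo3 and Irs2, 3 of 10 tested, beside 15.3% of all STM genes that passed and 6.21% that rose. Sesn1 was at 17.3, 22.6 and 13.7 normalized CPM in fed mice. It was at 44.5, 26.4 and 48.2 after 18 h and at 26.9, 39.2 and 57.3 after 22 h. Each of these 6 exceeded all fed stomachs and all 5 daytime stomachs, which lay between 15.8 and 25.8. The log2FC was 1.18 ± 0.26 against fed (adjusted p = 0.0095) and 0.98 ± 0.22 against the daytime fast (adjusted p = 0.0293), the latter 1 of 10 beside 3.96% of all genes. Both were kept with gene length offsets, at 1.02 (adjusted p = 0.00798) and 0.86 (adjusted p = 0.0353). The rise over fed had an adjusted p of 0.065 without fed replicate 3, and that over the daytime fast was lost without any of 7 of the 11 libraries (up to 0.0979).

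Foxo3 in STM was at 51.1, 61.4 and 38.7 in fed mice, at 98.5, 70.9 and 85.3 after 18 h and at 63.5, 83.4 and 87.1 after 22 h. The late stomachs all lay above the fed ones, the lowest only just (log2FC 0.69 ± 0.19, adjusted p = 0.0261). The call was lost without fed replicate 1 (adjusted p = 0.0751), fed replicate 3 (0.145) or 18 h replicate 1 (0.0587). The 2 h stomachs, at 69.2, 88.3 and 83.2, were as high. Irs2 was at 21.3, 23.96 and 7.95 fed, at 30.4, 38.2 and 23.5 after 18 h and at 27.97, 27.4 and 41.1 after 22 h. The ranges of Irs2 overlapped, and its log2FC of 0.82 ± 0.27 (adjusted p = 0.0484) was lost when any of 6 of the 9 libraries was left out, falling to 0.48 without fed replicate 3 (adjusted p = 0.196). Neither call was kept with gene length offsets, at 0.46 for Foxo3 (adjusted p = 0.0642) and 0.66 for Irs2 (0.0642). The offsets also moved the median of all STM genes from -0.003 to -0.16, and relative to it Foxo3 went from 0.69 to 0.62 and Irs2 was at 0.82 in both. Insr had a log2FC of 0.42 (adjusted p = 0.1), Foxo1 of 0.00 (0.997), Sesn3 of 0.08 (0.814) and Ccng2 of 0.11 (0.797).

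Markers of other cell types moved with these rises in STM. The summed skeletal muscle markers were 2756 to 5162 CPM in late fasted stomachs and 366 to 2297 in fed ones. The pan-neuronal markers were 39.7 to 65.5 against 14.7 to 30.1, with 3 of 3 tested rising, beside 6.21% of all STM genes that rose. Gastric epithelium markers were 12364 to 54452 against 39971 to 110720 and 3 of 7 fell, beside 1480 of 16281 STM genes that fell. Their part in the rises of Sesn1, Foxo3 and Irs2 was not tested. Lane nearly followed time, and only 8 h held libraries of both lanes. With lane as a covariate the log2FC of Sesn1 was 1.16 with an adjusted p of 0.725, in a fit where none of the 16281 genes passed. Within the lane that held 12, 18 and 22 h, late fast against 12 h alone gave 0.89 for Sesn1 (adjusted p = 0.395), and there too 0 of 16281 genes passed.

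In BRN 3 members fell in the late fast, Irs2, Igf1r and Sesn3, 3 of 9 tested, beside 11.2% of all BRN genes that passed and 4.17% that fell. Irs2 was at 58.3, 48.4 and 66.2 normalized CPM in fed mice, at 34.2 and 30.2 after 18 h and at 24.5, 18.8 and 35.3 after 22 h. Igf1r was at 54.04, 53.5 and 53.05 fed, at 21.7 and 30.2 after 18 h and at 21.5, 17.1 and 37.9 after 22 h. Sesn3 was at 171.4, 163.2 and 174 fed, at 94.1 and 119.6 after 18 h and at 110.7, 112.97 and 140.7 after 22 h. For each of the 3 genes all 5 late libraries lay below all 3 fed libraries. The same held for Ccng2, which did not pass (log2FC -0.52, adjusted p = 0.0888). The log2FC were -0.99 ± 0.24 for Irs2 (adjusted p = 0.0173), -1.05 ± 0.28 for Igf1r (0.0268) and -0.57 ± 0.14 for Sesn3 (0.0201).

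Igf1r in BRN also passed between fed and daytime fast, in which it was at 26.8 and 25.5 after 8 h and at 26.5, 14.7 and 41.5 after 12 h. The log2FC was -0.99 ± 0.28 (adjusted p = 0.039), 1 of 9 beside 8.16% of all genes and 2.81% that fell. With gene length offsets it was -0.25 and did not pass (adjusted p = 0.52), and relative to the median of all BRN genes it went from -0.93 to -0.41. Irs2 was at 35.8, 42.9, 32.9, 19.7 and 36.6 in these libraries, again below all fed values, with a log2FC of -0.75 that missed the threshold (adjusted p = 0.055).

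Without fed replicate 1 the adjusted p of the late falls in BRN was 0.0986 for Irs2, 0.117 for Igf1r and 0.109 for Sesn3, and the calls were lost without any of 2, 6 and 5 of the 8 libraries. The daytime call of Igf1r was lost without any of 7 of its 8 libraries (up to 0.163). None of the 3 late calls in BRN was kept when the 5 left-out libraries were added back (adjusted p = 0.36 for Irs2, 0.621 for Igf1r and 0.528 for Sesn3) or when the 4 libraries nearest to another organ were left out (0.0648, 0.115 and 0.0881). The index of long genes was 0.29 to 0.43 in fed BRN and -0.40 to 0.11 in the late fast. With gene length offsets Irs2 was at -0.57 (adjusted p = 0.0886), Igf1r at -0.28 (0.377) and Sesn3 at 0.21 (0.506). These offsets moved the median of all BRN genes from -0.09 to 0.19, and relative to that median Irs2 went from -0.90 to -0.75, Igf1r from -0.96 to -0.47 and Sesn3 from -0.48 to 0.03. The fed and late libraries of BRN shared no library series, and only 2 h and 12 h held both ranges. With library series as a covariate over all 6 time points none of the 16749 BRN genes passed between late or daytime fast and fed, and the late log2FC were -0.91 for Irs2 (adjusted p = 0.464), -0.51 for Igf1r (0.697) and -0.81 for Sesn3 (0.414). Macrophage markers summed to 275 to 399 CPM in late BRN and to 210 to 256 in fed BRN, pan-neuronal markers to 2161 to 3771 and 3426 to 3857, and their part was not tested.

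**Figure D5:**
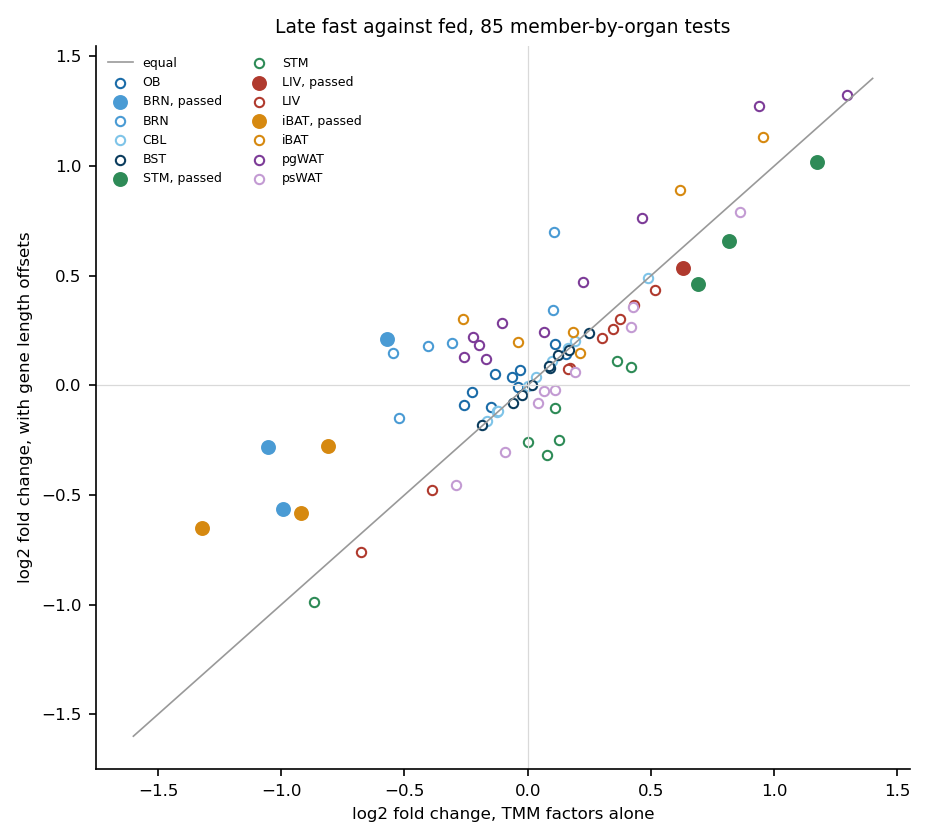
Log2FC of late fast against fed for the 85 tests of a member in an organ, with TMM factors alone (x axis) and with gene length offsets added (y axis); filled points passed with TMM alone. Sesn3 in BRN changes sign, from -0.57 to 0.21, and Sesn1 in STM moves from 1.18 to 1.02.

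In OB no member passed between fed and late fast (0 of 9 by edgeR, beside 1.95% of all genes, with 3 at an unadjusted p under 0.05 beside 22.8%, and Igf1r alone by DESeq2, adjusted p = 0.0303, beside 4.84%), and 4 of 9 passed between daytime and late fast, beside 29.3%. Igf1r ranged from 56.7 to 70.3 (median 63.9) in the daytime fast and from 43.4 to 59.8 (median 54.1) in the late fast. Sesn3 ranged from 191.3 to 211 and from 127.5 to 192.8, Insr from 57.2 to 61.97 and from 37.99 to 61.4, and Sesn1 from 87.4 to 95.1 and from 88.3 to 104.5. The groups overlapped for all 4. Their log2FC were -0.28 for Igf1r (adjusted p = 0.00167), -0.32 for Sesn3 (0.00252), -0.23 for Insr (0.0222) and 0.15 for Sesn1 (0.0261). The calls of Igf1r and Sesn3 held when any 1 of the 12 libraries was left out, that of Insr was lost in 3 such fits (adjusted p up to 0.0587) and that of Sesn1 in 7 (up to 0.0805). With gene length offsets Igf1r and Insr were both at 0.01, Sesn3 at -0.05 and Sesn1 at 0.12 (adjusted p = 0.0749), and none of the 4 passed, whereas Foxo3 did, at 0.16 (0.042). With lane as a covariate Igf1r (-0.30, adjusted p = 0.00824) and Sesn3 (-0.35, 0.00936) kept their calls, 2 of 9 beside 20.1% of all genes, and Insr (0.0754) and Sesn1 (0.0722) did not. That lane term rested on 8 h replicate 3 against replicates 1 and 2, as no other time held both lanes. Within the lane of 12, 18 and 22 h Sesn3 alone passed, at -0.32 (adjusted p = 0.0238), 1 of 9 beside 10.1% of all genes.

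CBL and BST were each sequenced in 1 lane. In CBL depth followed the fed state, with 20396385 to 22071004 counts in the fed libraries and 6487419 to 9487976 in all others. In CBL 0 of 10 members passed between fed and late fast, beside 0.344% of all genes, with 3 at an unadjusted p under 0.05 beside 15% of all genes, and 0 by DESeq2. Foxo3 rose between the daytime fast, at 143.5 to 180.3 normalized CPM, and the late fast, at 169.4 to 217.6, with a log2FC of 0.32 ± 0.07 (adjusted p = 0.0369), 1 of 10 beside 0.795% of all genes. The ranges of Foxo3 overlapped, and the call was lost without any of 8 of the 12 libraries (adjusted p up to 0.135). Against 12 h alone the difference was 0.36 (adjusted p = 0.0363, beside 1.73%). Ccng2 in CBL passed the time course (adjusted p = 0.0405), a call that was lost in 9 of 18 fits without 1 library (up to 0.122). In BST 0 of 9 members passed in any comparison by edgeR, beside 0.0596% of all genes for late fast against fed, where 3 members had an unadjusted p under 0.05, beside 9.87% of all genes, and DESeq2 called 0. By DESeq2 Igf1r passed the time course of BST (adjusted p = 0.0238, beside 1.26%).

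White fat gave no call for a member by edgeR, in tests where almost no gene passed (0.00609% in pgWAT and 0 of 16721 genes in psWAT between late fast and fed), and 1 member in each had an unadjusted p under 0.05, beside 21.7% of all genes in pgWAT and 5.19% in psWAT. Sesn1 in psWAT was at 67.6, 80.3 and 87.9 normalized CPM when fed, at 125.9, 113.4 and 160.7 after 18 h and at 164.95 and 140.2 after 22 h. All 5 late values were above all fed values, with a log2FC of 0.86 ± 0.18, an unadjusted p of 0.000241 and an adjusted p of 0.936. By DESeq2 it passed (adjusted p = 0.00276), as the only member in white fat between late fast and fed, where that tool called 0.0718% of all genes in psWAT and 6.92% in pgWAT. The 12 h mice, at 121.8, 133.3 and 138.98, were above the fed range too, but the 12 h library of replicate 3 lay nearest to another organ. In pgWAT Igf1r ranged from 10.4 to 111.7 in the late fast, and its 2 highest values, 111.7 at 18 h and 75.6 at 22 h, were those of the third 18 h mouse and of the 22 h library that lay nearest to another organ.

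Whether the late change of a member in 1 organ differed from the mean change in the other 8 was tested with limma over all organs. It passed in 8 of 90 tests, beside 6.36% of all tests: 5 of 10 in BRN (9.6% of all genes), 2 of 10 in STM (13.4%) and 1 of 10 in iBAT (9.71%). The larger rise of Sesn1 in STM and the larger fall of Insr in iBAT were among them.

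The other genes of the pathways were described by list. Of 34 insulin signalling genes, which include the phosphoinositide 3-kinase and Akt subunits and the mTOR complexes, 30 were tested in LIV, and in the late fast 3 rose and 1 fell, beside 10.6% of all LIV genes that passed. Rictor, the defining subunit of mTORC2, rose by 0.58 (adjusted p = 0.0121), Gsk3a by 0.35 (0.041) and the catalytic subunit Pik3ca by 0.43 (0.0459), while the regulatory subunit Pik3r1 fell by 0.39 (0.0238). The median of the list was 0.03, beside 0.01 over all LIV genes. In iBAT 1 rose and 10 fell of 31 tested, beside 20.9% of all iBAT genes that passed and 13% that fell, with a median of -0.47 beside -0.07 over all genes. The 4 with the smallest adjusted p there, Deptor, Mtor, Sh2b2 and Gsk3b, fell by 1.39, 1.10, 1.12 and 1.36, in the same libraries in which long genes were low. In BRN 5 of 32 fell, beside 4.17% of all genes, with a median of -0.44, where the median of all genes over 6000 exon bases was -0.40 and that of the others 0.07. In STM 2 of 32 rose, near the 6.21% of all genes that rose, and in the other 5 organs none passed between late fast and fed.

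Of 29 glucagon and cAMP genes 24 were tested in LIV, where Gcgr had changed. Crtc2, the CREB coactivator that glucagon signalling activates in hepatocytes, was at 42.3 ± 2.87 in fed livers, 59.03 ± 5.04 in the daytime fast and 65.4 ± 9.85 in the late fast. It rose in both (log2FC 0.48, adjusted p = 0.014, and 0.62, adjusted p = 0.00231). Prkar2a, a regulatory subunit of protein kinase A, rose by 0.35 in the daytime fast (adjusted p = 0.034) and fell by 0.42 from there to the late fast. No other gene of the list passed between these groups in LIV, where 1 of 24 passed in the late fast beside 10.6% of all genes, and the median in the late fast was 0.12 beside 0.01. The time course of LIV passed in 6 of 24, beside 16%, Prkacb (adjusted p = 0.0203) and Ppargc1a (0.0323) among them. In STM 4 of 28 passed between late fast and fed, near the share of 15.3% over all STM genes. Gcg, which encodes the glucagon precursor, fell by 2.40 (adjusted p = 0.00733), and Nr4a1, Adcy5 and Glp2r rose by 1.14, 1.05 and 1.16.

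Of 24 FoxO target genes other than the members, 1 of 23 tested rose in the late fast of LIV, beside 5.19% of all genes, the ubiquitin ligase subunit Fbxo32 (1.404 ± 0.44, adjusted p = 0.045), and the median was 0.14 beside 0.01. Fbxo32 was low, at 1.26 ± 0.28 normalized CPM fed and 3.38 ± 1.32 late, the fed level being close to the filter minimum of 1.16 CPM. In iBAT 6 rose and 2 fell of 22, beside 20.9% of all genes that passed and 7.91% that rose, with a median of 0.42 beside -0.07. In the same contrast the median of all iBAT genes was 0.11 for those under 6000 exon bases and -0.49 for the longer ones, and the part of gene length in these rises was not tested. Map1lc3b and Bnip3, which act in autophagy and mitophagy, rose by 1.00 and 1.28, Klf15 by 1.11 and the translation inhibitor Eif4ebp1 by 0.92. In STM 2 rose and 3 fell of 22, beside 15.3% of all genes. Of 8 relatives of the members 4 were tested in LIV and 1 passed in the late fast, beside 10.6%: Ccng1 fell by 0.56 (adjusted p = 0.0121). In STM 1 of 7 passed, near the 15.3% of all genes: Foxo4 rose by 0.50 (0.0383). In iBAT 1 of 6 fell between fed and late fast, beside 13%, and 3 of 6 fell against the daytime fast, beside 12.5%, namely Foxo4 by 0.68, Irs3 by 0.91 and Igf2r by 0.93. Among 12 growth factor ligands and binding proteins 9 were tested in LIV and 2 rose in the late fast, beside 5.19% of all genes, Igf1 from 739 ± 44.6 by 0.50 (adjusted p = 0.00696) and Igfbp3 by 0.62 (0.0445). In iBAT 3 of 7 passed, beside 20.9%: Igfals and Igfbp4 rose by 1.10 and 0.59 (0.0344 and 0.0403), and Igfbp5 fell by 1.05 (0.0177).

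The genes whose levels followed those of a member most closely were found among all genes kept. Over the 18 LIV libraries Gcgr was closest to Phf21a, Pnpla6 and Gripap1, with Pearson r of 0.961, 0.945 and 0.943, and Ccng2 to Parp16, Slc35e3 and Sphk2, with r of 0.819, 0.785 and 0.782. Over the means of the 9 organs Gcgr was closest to Ugt2b5, A1cf and Gm11789, at 0.996, 0.994 and 0.992, where LIV alone sets the order. These r are descriptions over libraries that share lanes and fasting times.

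On GRCm38, Gcgr (ENSMUSG00000025127.15) spans chr11:120530699-120538986 on the plus strand, Ccng2 (ENSMUSG00000029385.14) chr5:93267257-93276231 on the plus strand, Sesn1 (ENSMUSG00000038332.13) chr10:41809935-41908424 on the plus strand and Sesn3 (ENSMUSG00000032009.8) chr9:14275067-14333101 on the plus strand. Insr (ENSMUSG00000005534.10) spans chr8:3122061-3279617 on the minus strand, Igf1r (ENSMUSG00000005533.10) chr7:67952827-68233668 on the plus strand, Irs1 (ENSMUSG00000055980.2) chr1:82233101-82291416 on the minus strand and Irs2 (ENSMUSG00000038894.7) chr8:10984681-11008458 on the minus strand. Foxo1 (ENSMUSG00000044167.6) spans chr3:52268336-52353221 on the plus strand and Foxo3 (ENSMUSG00000048756.11) chr10:42181841-42276755 on the minus strand. All are protein-coding, and counts were summed over the exons of each.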

How the data were processed

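RNA was sequenced from 9 organs of 18 mice. The authors prepared stranded mRNA libraries, read them in pairs of 150 bases, aligned them with TopHat2 2.1.1 to GRCm38.p5, and used HTSeq 0.9.1 to count the reads that mapped to 1 place on the exons of Gencode M16. The deposited values are these raw counts per gene and library, with no normalization. Whether counting used strand is not given in the sources used here, so reads of overlapping antisense genes cannot be told apart from those of a member. The 10 members, their lists and the groups of time points were chosen with earlier results of these data known.

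Genes with the CPM of 10 counts in a library of median size in at least 3 libraries of an organ were kept. Each organ was fitted with edgeR 4.0.16 (TMM, robust quasi-likelihood test) in R 4.3.3 over 6 time points, with Benjamini-Hochberg adjustment over all genes kept and a threshold of 0.05. The 5 libraries left out by the study were left out. Organs were compared by a two-sided exact sign-flip permutation test over mice of log2(normalized CPM + 0.5), adjusted over 80 pairs. Whether a change differed between organs was tested with limma 3.58.1 (voom, mouse as a block). DESeq2 1.42.0 and other scalings, filters, covariates and samples were alternatives. Lengths and coordinates are those of Gencode M21. All 10 members were named, and from each list up to 4 genes with the smallest adjusted p in LIV and in the organ with most calls. On simulated LIV data the late test recovered 197 of 200 genes changed 4-fold and 180 of 200 changed 2-fold. Only genes with higher counts were changed there, without lane or gene length effects, so the recovery does not give the power of the real comparisons. No pair of libraries of a group agreed within sampling noise. Replicate numbers in the labels did not mark shared animals across time points.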

Additional observations from a re-analysis of the deposited data

Results flagged for a closer look

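The late fast against fed in 1 organ was compared with the mean of the same difference in the other 8 organs, with limma on all retained libraries. Of 90 such tests of the members, 8 passed at an adjusted p under 0.05.

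In BRN 5 members lay below the other organs. The difference was -1.42 ± 0.47 for Irs2 (SE, adjusted p = 0.037), -1.17 ± 0.35 for Igf1r (0.022), -0.73 ± 0.23 for Foxo3 (0.031), -0.62 ± 0.19 for Sesn3 (0.028) and -0.77 ± 0.24 for Ccng2 (0.03). Foxo3 and Ccng2 had not passed within BRN itself. None of the 5 passed with the 5 left-out libraries added back or without the 4 libraries nearest to another organ, and the fed and late libraries of BRN shared no library series.

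In STM Sesn1 lay above the other organs by 0.91 ± 0.22 (adjusted p = 0.0025) and Insr by 0.66 ± 0.22 (0.0336). In iBAT Insr lay below them by -0.71 ± 0.18 (0.0061). These 3 passed also with the 5 left-out libraries added back and without the 4 libraries nearest to another organ, settings that leave gene length as it was. Insr in STM had not passed within STM itself (0.42, adjusted p = 0.1), and with gene length offsets its change there was 0.08, or 0.25 relative to the median of all STM genes against 0.42 without them. The change of Insr within iBAT went from -0.81 to -0.28 with these offsets, and from -0.75 to -0.15 relative to the median of all iBAT genes. Ccng2 in LIV, at 0.71 ± 0.23, missed the threshold (adjusted p = 0.0599) and passed with the 5 left-out libraries added back, at 0.77.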

How the results depend on the processing

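The number of passing tests of members depended on the setting. There were 85 such tests, or 90 without the filter on low counts, and each count is followed by the share of all genes that passed. For late fast against fed, 10 passed (6.44%), and 3 with an absolute log2FC over 1 (2.56%), 5 with the 5 left-out libraries added back (4.2%), 4 with gene length offsets (5.57%), of which 1 was among the 10, 2 with lane or library series as a covariate (1.05%), 6 in a fit of 0, 18 and 22 h alone (3.55%) and 7 without the 4 libraries nearest to another organ (5.46%). For daytime fast against fed, 3 passed (1.9%), 5 of 90 without the filter (1.92%), 2 with the 5 left-out libraries added back (0.921%) and 0 with an absolute log2FC over 1 (0.578%), where 15 had an unadjusted p under 0.05 (11.6%) and 4 passed by DESeq2 (3.11%). For late against daytime fast, 10 passed (6.59%), 1 with an absolute log2FC over 1 (0.977%), 2 against 12 h alone (1.36%), 4 with gene length offsets (3.57%) and 3 with lane or series (2.46%). The time course passed in 13 (7.34%), in 23 with DESeq2 (15.4%), in 23 of 90 without the filter (7.53%), in 4 with gene length offsets (4.89%) and in 5 with lane or series (1.96%). CBL and BST, of 1 lane each, could not be refitted with lane and enter these lane counts and shares unchanged, with Foxo3 in CBL as 1 of the 3 and Ccng2 in CBL as 1 of the 5. Without 1 library the counts ranged from 7 to 12, 2 to 4, 6 to 12 and 9 to 16. Gene length offsets turned the sign of Sesn3 in BRN (0.21, late against fed) and of Insr and Igf1r in OB (0.011 and 0.014, late against daytime), but relative to the median of all genes these were 0.03, -0.002 and 0.002, close to 0; the cause was not tested. The tests of a difference between organs passed in 8, in 8 without the mouse block, in 4 with the 5 left-out libraries added back and in 3 without the 4 libraries. Of 36 called values, 36 kept their direction and side of the threshold with DESeq2 and with RLE factors, 35 without the filter and 32 with library totals, but 9 with gene length offsets and, of 34 that could be refitted, 10 with lane or series. With 0 and 2 h together as the fed group, 7 of the 10 late calls against fed were kept.

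Samples with the same replicate number did not deviate together in most organs (mean r from -0.07 to 0.16 in an organ). The highest was iBAT, at 0.16 against -0.08 for other numbers, where 10 of 17 libraries were closest to their own number. With a replicate block 9, 3, 11 and 14 tests passed, and 4 of the 36 calls were lost, Irs2 in STM (adjusted p = 0.0601), Ccng2 in LIV between late fast and fed (0.0553) and Sesn1 in STM against the daytime fast (0.0531) and over time (0.0603).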
